A study of Homo sapiens with 16 samples.

Results

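The response of NOMO-1 cells to a hairpin against FTO was taken from 6 of the 16 libraries of the series, the 3 labelled shFTO and the 3 labelled shNS, which carried a control hairpin. NOMO-1 is an established human cell line derived from a monocytic form of acute myeloid leukaemia. Per the labels, cells were infected with lentivirus directed at FTO and positive cells were kept in puromycin at 1 µg/ml for 1 week. The labels do not state this treatment separately for shNS, nor the hairpin sequences or whether lines were clonal; the series text calls the FTO hairpin cells stable, so they are a selected population. The other 10 libraries are 4 of cells given DMSO, 3 given CS1 at 100 nM and 3 given CS2 at 500 nM, each for 72 hours; CS1 and CS2 are compounds that the labels call FTO inhibitors, and they were used here only where stated. Each group is described as biological replicates. RNA was enriched for poly(A) tails, and the table holds TPM, abundances scaled for transcript length so that all entries of a library add up to the same total. Read numbers cannot be had from TPM, so the depth is unknown and no counting error is given. Of 26830 entries in the table, 14951 reached 1 TPM in at least 3 of the 16 libraries and were tested. Entries just inside and just outside this limit numbered 349 at 1 TPM or more in exactly 3 libraries and 342 in exactly 2.

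Markers of the labelled cells were read first. Among myeloid genes, CD33 lay between 68.69 and 82.21 TPM, SPI1 between 113.93 and 133.94 TPM, and PTPRC between 79.78 and 153.27 TPM over the 6 libraries. The monocyte receptor CD14 was nearly absent, at 0.08 to 0.39 TPM, as was myeloperoxidase (MPO), at 0.24 to 0.60 TPM. ITGAM was low, at 6.44 to 8.79 TPM, and CSF1R lower, at 0.93 to 3 TPM. Among markers of other cells, the haemoglobin genes HBA1, HBA2, HBG1 and HBG2 and the epithelial gene EPCAM were listed at 0 in all 6 libraries, and the T cell gene CD3E was too. Other markers of the same cells were present at low levels. CD3G held 2.84 to 5.5 TPM, KRT8 2.89 to 4.38 TPM, KLF1 1.94 to 3.97 TPM, EPOR 7.9 to 10.06 TPM and GP1BA 3.34 to 9.48 TPM. The 13 lymphocyte markers summed to 457 to 477 TPM in shNS and 260.4 to 276.4 TPM in shFTO, most of it NKG7, a granule membrane protein, which fell from 442, 461 and 459.8 TPM to 252, 235 and 234 TPM (log2 fold change -0.92, SE 0.038, limma adjusted p = 1.11e-10). In bulk RNA, fewer cells of a type and less RNA per cell cannot be told apart.

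FTO encodes a dioxygenase of the AlkB family that removes methyl groups from N6-methyladenosine (m6A) and related marks in RNA. Writers such as METTL3 place m6A, readers of the YTH and IGF2BP families bind it, and the mark is known to affect splicing, stability and translation of transcripts. In acute myeloid leukaemia FTO has been described as supporting growth and holding back differentiation, with MYC, CEBPA, ASB2, RARA, PFKP and LDHB among the transcripts tied to it.

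FTO itself (ENSG00000140718.20, chr16:53701692-54158512, GRCh38) held 31.3, 30.8 and 32.8 TPM in shNS and 8.12, 7.49 and 8.35 TPM in shFTO. The groups did not overlap, and the 3 shFTO libraries held similar levels. The fall to 25.3% of the shNS mean (log2 fold change -1.86, SE 0.060, limma adjusted p = 7.38e-12) was seen in every shFTO library, with differences from the shNS mean of -1.84, -1.94 and -1.80 on log2(TPM + 1). FTO was 29.57 to 33.28 TPM in the DMSO libraries, the range in which shNS also lay.

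**Figure D1:**
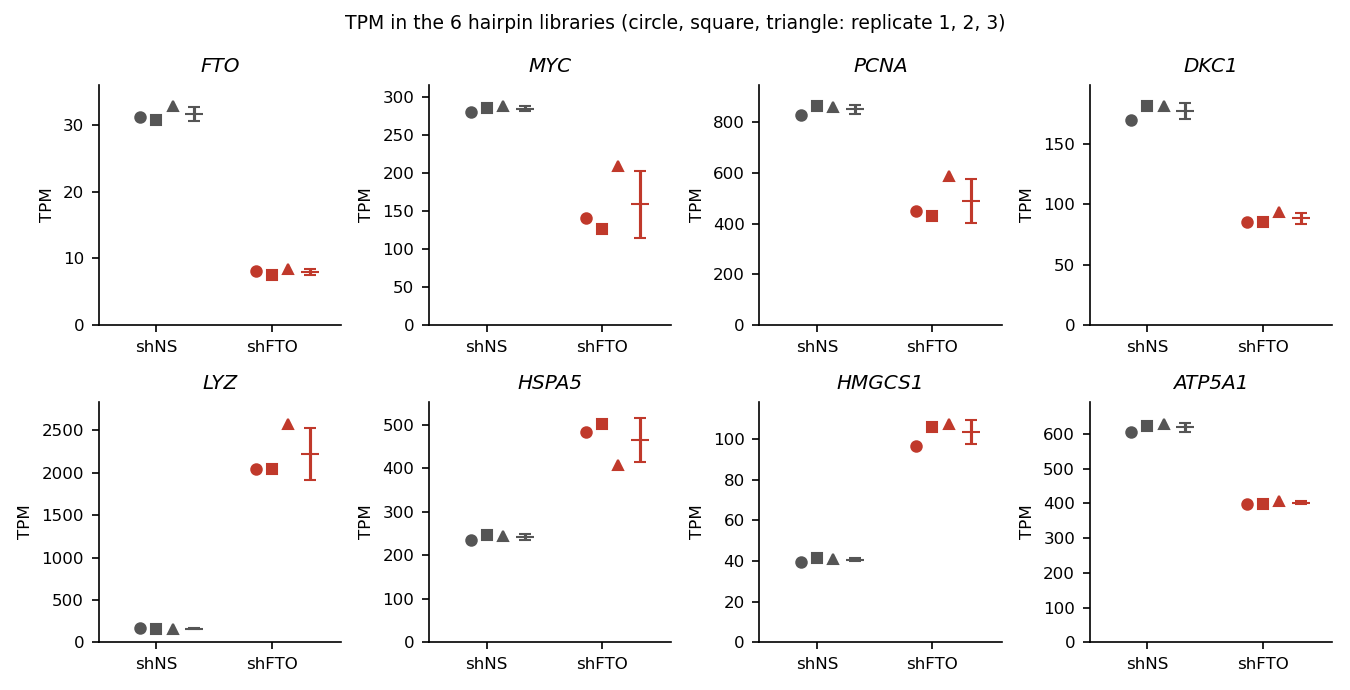
TPM of 8 genes in the 3 shNS (grey) and 3 shFTO (red) libraries; circle, square and triangle are replicates 1, 2 and 3, and the bar is the mean ± SD (n = 3). FTO lies between 7.49 and 8.35 TPM in shFTO, and replicate 3 (triangle) is the highest shFTO library for MYC, PCNA and LYZ and the lowest for HSPA5.

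The response was wide and mostly small. Of the 14951 genes tested, 4776 rose (31.9%) and 3661 fell (24.5%) at a limma adjusted p under 0.05, with a median size of 0.40 on the log2 scale among those called. At least a 2-fold rise was called for 347 genes and at least a 2-fold fall for 126, and at least 4-fold for 21 and 8. Without shFTO replicate 3 the count of 2-fold falls was 199. All 3 shFTO libraries lay at least 2-fold above the shNS mean for 217 of the rising genes and at least 2-fold below it for 55 of the falling ones. Fold changes are differences of log2(TPM + 1), so those of weakly expressed genes are understated. The limma SEs and p-values rest on a spread estimated from all 16 libraries of the 5 groups, so they do not measure that of the hairpin libraries alone. A fit to the 6 hairpin libraries called 8359 genes. An exact permutation test of 3 against 3 cannot go below p = 0.10.

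The balance of rises and falls depended on the scaling. Of calls, 56.6% were rises with TPM as deposited, 45.8% after the TPM of each library were scaled to a common median, and 44.9% after the same was done on log2 values. The median of all genes tested was 0.07 as deposited. Transcript length moved with the response: over 12210 protein-coding genes, Spearman's rank correlation between the log2 fold change and the longest annotated transcript was 0.21, as a description. In the shortest length quintile 23.1% of genes rose and 39.5% fell, and in the longest 47.6% rose and 16.3% fell. The same order was seen in each shFTO library. With the medians of 10 bins of transcript length set equal, 4231 of the 12210 genes rose and 3758 fell. Ribosomal RNA entries took 1.75 to 4.48% of TPM in shNS and 2.53 to 3.37% in shFTO, so these ranges overlap.

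**Figure D2:**
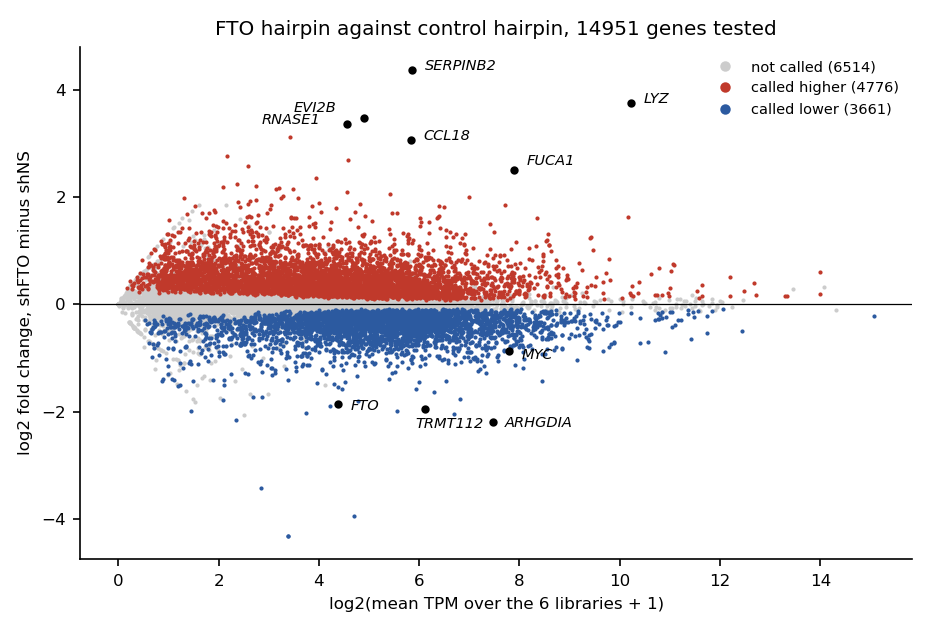
Log2 fold change (shFTO minus shNS) against log2 of the mean TPM over the 6 libraries plus 1, for 14951 genes; red were called higher (4776), blue lower (3661) and grey were not called, and the black points are named genes. SERPINB2 and LYZ lie highest and reach 4.36 and 3.76, FTO lies at -1.86, and the points under -3 are DEFA1 and DEFA1B (1 position), EEF1E1 and the small RNA SNORD139, each listed at 0 in at least 2 shFTO libraries.

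The largest rises are given first. SERPINB2, an inhibitor of plasminogen activators made by monocytes, held 4.35, 4.28 and 4.05 TPM in shNS and 96.1, 83.4 and 149.7 TPM in shFTO. Lysozyme (LYZ, chr12:69348341-69354234), a secreted antibacterial enzyme of myeloid cells, held 166, 163 and 159 TPM in shNS and 2049.7, 2048 and 2579 TPM in shFTO. For both, every shFTO library lay far above every shNS library and replicate 3 was the highest; the log2 fold changes were 4.36 (SE 0.17) and 3.76 (SE 0.078), with limma adjusted p = 5.32e-11 and 1.15e-13. The chemokine CCL18, a product of macrophages, held 11.6, 12.3 and 9.76 TPM in shNS and 95.2, 89.5 and 119 TPM in shFTO. That is a log2 fold change of 3.06 (limma adjusted p = 1.29e-09), and CCL18 was 0.21 to 0.74 TPM in the DMSO libraries, below shNS. The secreted ribonuclease RNASE1 held 2.99, 3.23 and 3.31 TPM in shNS and 42.8, 41.9 and 41.0 TPM in shFTO, with shFTO libraries close to each other (log2 fold change 3.36, SE 0.16, limma adjusted p = 3.99e-10). The lysosomal fucosidase FUCA1 held 67.0, 72.8 and 72.5 TPM in shNS and 387, 379.9 and 444 TPM in shFTO (log2 fold change 2.49, SE 0.057, limma adjusted p = 2.09e-13). Neither of these overlapped between groups.

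The neighbours EVI2A and EVI2B, leukocyte membrane proteins encoded inside an intron of NF1 on chromosome 17, rose together. EVI2B held 3.26, 4.31 and 4.27 TPM in shNS and 52.56, 53.02 and 55.61 TPM in shFTO (log2 fold change 3.47, SE 0.17, limma adjusted p = 5.98e-10). EVI2A held 5.58, 5.66 and 5.09 TPM in shNS and 43.1, 43.9 and 34.5 TPM in shFTO (log2 fold change 2.68, SE 0.095, limma adjusted p = 1.89e-11). Because they overlap NF1 and it is not given whether counting used strand, reads of the 3 genes may not be fully separated. The other large rises were in the opioid precursor PDYN (3.11), the carboxypeptidase CPB1 (2.57), the signalling regulator RGS18 (2.35), the secreted protein CRISPLD2 (2.23) and the membrane protease FAP (2.198), as log2 fold changes. All 5 started from 0.57 to 4.09 TPM in shNS. CPB1 reached 1 TPM only in the shFTO libraries, so it was tested only because it was high there.

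Among the largest falls, the neutrophil defensin genes were listed at 0 in shFTO. DEFA1 and DEFA1B carried the same values, 18.93, 16.63 and 21.39 TPM in shNS and 0 in all 3 shFTO libraries, and they are near-identical copies whose reads cannot be told apart. No fold is given, since they are listed at 0. In DMSO libraries DEFA1 was 0.14 to 0.92 TPM, so shNS stood above both DMSO and shFTO. EEF1E1, a component of the tRNA synthetase complex, held 11.1, 9.82 and 15.5 TPM in shNS and 0, 0.77 and 0 TPM in shFTO, and no fold is given for it either. Its values were unsteady elsewhere in the series, at 0.35 to 10.13 TPM over the CS2 libraries, and its SE was 0.55. ARHGDIA, an inhibitor of small GTPases, held 282, 299 and 286 TPM in shNS and 60.1, 58.3 and 70.5 TPM in shFTO. The import channel of the outer mitochondrial membrane, TOMM40, held 162, 165 and 167 TPM in shNS and 38.1, 36.6 and 43.2 TPM in shFTO. Both fell in every shFTO library without overlap, by 2.18 and 2.04 on the log2 scale (limma adjusted p = 2.73e-12 and 3.44e-11). UNG, which removes uracil from DNA, held 72.37, 77.31 and 70.56 TPM in shNS and 15.96, 14.43 and 24.61 TPM in shFTO, with replicate 3 the highest of its group (log2 fold change -1.98, SE 0.13, limma adjusted p = 1.19e-08). TRMT112, the partner protein of several RNA and protein methyltransferases, held 108, 109.5 and 111 TPM in shNS and 27.1, 28.0 and 27.3 TPM in shFTO, and the 3 shFTO values were nearly equal (log2 fold change -1.95, SE 0.037, limma adjusted p = 5.61e-14). The remaining falls selected by size were MIEN1 (-1.90), C17orf89, a complex I assembly factor now named NDUFAF8 (-1.80), the corepressor AES, now TLE5 (-1.76), and the endocytic adaptor EPN1 (-1.64). FTO stood among these 12.

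Genes of DNA replication fell as a group. All 34 members tested fell and 0 rose, where 24.5% of all genes fell. The median log2 fold change was -0.61, against 0.07 over all genes. All 34 also had shFTO libraries below every shNS library, as did 26.4% of all genes. MCM3, a subunit of the replicative helicase, held 365, 379 and 376 TPM in shNS and 154, 142 and 202 TPM in shFTO (log2 fold change -1.18, SE 0.085, limma adjusted p = 3.21e-08). PCNA, the sliding clamp of DNA polymerases, held 828, 861 and 859.6 TPM in shNS and 451, 430.3 and 587 TPM in shFTO (log2 fold change -0.81, SE 0.078, limma adjusted p = 6.50e-07). Replicate 3 was the highest shFTO library for both, and its values still lay below all of shNS. CDC45, which activates the helicase, fell by 0.93, the clamp loader subunit RFC2 by 0.69, the GINS subunit GINS1 by 0.69, and cyclin E1 (CCNE1) by 0.82 on the log2 scale. The smallest fall was that of the polymerase POLE, at -0.18 (limma adjusted p = 0.0301). The count was 33 or 34 under every alternative run, whichever library was left out.

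E2F factors are known to drive replication genes at the start of S phase, and their binding motif was looked for in the 250 bases before the annotated start of each gene. The motif letters were TTTCGCGC or TTTGGCGC on either strand, and matches of the 2 can overlap on opposite strands. Of 30 replication genes with a promoter in the table, 6 held it (20.0%), against 1.198% of 27305 genes and 1.95% of genes tested here. All 6 (MCM6, MCM7, POLA1, POLA2, POLE and E2F1) fell, but so did all 34 members tested, so their direction says nothing about the motif. The windows of 3 of them are shown to let the shared letters be seen, in capitals, 5′ to 3′ on the strand of the gene, from RefSeq on GRCh38.p14.
MCM7 (chr7:100101398-100101647, minus strand): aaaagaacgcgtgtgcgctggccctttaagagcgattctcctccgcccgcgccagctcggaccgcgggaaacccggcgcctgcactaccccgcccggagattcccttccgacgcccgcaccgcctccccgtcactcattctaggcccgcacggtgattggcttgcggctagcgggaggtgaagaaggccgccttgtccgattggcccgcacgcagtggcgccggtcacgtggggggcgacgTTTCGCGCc
POLA2 (chr11:65261712-65261961, plus strand): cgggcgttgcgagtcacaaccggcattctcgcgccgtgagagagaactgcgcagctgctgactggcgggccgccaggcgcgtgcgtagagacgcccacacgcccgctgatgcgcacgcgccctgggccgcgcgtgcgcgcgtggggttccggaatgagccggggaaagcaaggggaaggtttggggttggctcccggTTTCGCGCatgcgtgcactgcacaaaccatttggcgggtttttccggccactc
MCM6 (chr2:135876444-135876693, minus strand): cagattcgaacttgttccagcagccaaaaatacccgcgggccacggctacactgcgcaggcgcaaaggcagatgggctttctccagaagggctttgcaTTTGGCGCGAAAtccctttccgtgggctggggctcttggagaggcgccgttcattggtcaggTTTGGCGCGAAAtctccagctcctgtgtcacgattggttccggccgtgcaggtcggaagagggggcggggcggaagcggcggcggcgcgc
MCM7 fell by 0.76, POLA2 by 0.39 and MCM6 by 0.62 on the log2 scale. At each of its 2 sites, MCM6 carries both forms, overlapping on opposite strands. A match is a description of the letters and no evidence of binding.

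Genes of mitosis moved less. Of 25 tested, 15 fell and 1 rose, with a median log2 fold change of -0.23, where 24.5% of all genes fell and 31.9% rose. UBE2C, the ubiquitin-conjugating enzyme of the anaphase-promoting complex, fell most, from 60.15, 55.26 and 57.33 TPM to 28.54, 25.44 and 25.09 TPM (log2 fold change -1.10, SE 0.052, limma adjusted p = 4.50e-10). The proliferation marker MKI67 fell by 0.36 and the spindle kinases AURKB and BUB1B by 0.32 and 0.36. BIRC5, which encodes survivin, was the member that rose (0.43). CDK1 (0.05) and TOP2A (-0.06) did not pass the test. Replication-dependent histone transcripts mostly lack poly(A) tails and are poorly captured in such libraries. Of these, 3 of 20 rose and 6 fell, to be read against the same shares of all genes.

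MYC-associated genes of the nucleolus and growth fell almost throughout. Of 28 tested, 26 fell and 2 rose, with a median of -0.68, where 24.5% of all genes fell and 31.9% rose. Without shNS replicate 1, 26 fell and 1 rose. Without shFTO replicate 2, and also with transcript length bins set equal, 23 fell and 2 rose. MYC itself held 281, 285 and 288 TPM in shNS and 141, 127 and 209.6 TPM in shFTO. Its 3 shFTO libraries lay below shNS without overlap, and replicate 3 stood well above the other 2 (log2 fold change -0.87, SE 0.14, limma adjusted p = 0.000117). Dyskerin (DKC1), which forms pseudouridine in ribosomal RNA, held 169.9, 181 and 181 TPM in shNS and 85.5, 85.6 and 94.0 TPM in shFTO (log2 fold change -0.998, SE 0.054, limma adjusted p = 1.63e-09). Fibrillarin (FBL), the ribosomal RNA methyltransferase, held 527, 549.6 and 542 TPM in shNS and 303, 285 and 340.2 TPM in shFTO (log2 fold change -0.80, SE 0.066, limma adjusted p = 1.30e-07). The nucleolar assembly factors NOP16 (-1.28), BOP1 (-1.02) and WDR12 (-0.83) and nucleolin (NCL, -0.87) fell as well. The members that rose were LDHA, lactate dehydrogenase A (0.52), and TFRC, the transferrin receptor (0.39); for TFRC replicate 3 held 210 TPM against 127 and 129 TPM.

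Cytosolic ribosomal protein genes showed no settled direction. Of 63 tested, 6 rose and 18 fell, with a median of -0.02, where 31.9% of all genes rose and 24.5% fell. The split was 1 and 21 after median scaling of TPM, 14 and 13 without shFTO replicate 3, and 21 and 9 with transcript length bins set equal. In 60 of the 63, replicate 3 was the lowest shFTO library, as it was for 31.5% of all genes tested. RPLP0 rose (0.36) and RPL24 fell (-0.30).

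Genes of energy metabolism fell in part. The counts in this paragraph are to be read against all genes, of which 24.5% fell and 31.9% rose. Of 38 nuclear genes of oxidative phosphorylation, 29 fell and 1 (NDUFB5) rose, with a median of -0.28. With transcript length bins set equal 25 fell and 3 rose, and when shFTO replicate 3 was left out, 28 fell and 2 rose. The ATP synthase subunit gene ATP5A1 held 604, 622 and 629 TPM in shNS and 399, 399 and 407 TPM in shFTO (log2 fold change -0.62, SE 0.026, limma adjusted p = 1.11e-10). The spread within each group was small beside this difference. Transcripts of this list are short, with a median length of 1836 bases, and shorter transcripts fell more often, as given above. The cytochrome oxidase subunit COX6A1 (-0.62) and the complex I subunits NDUFB8 (-0.52) and NDUFA8 (-0.66) fell too. In glycolysis 12 of 24 fell and 6 rose, and the members that fell included consecutive enzymes: GPI (-0.56), PFKP (-0.60), ALDOA (-0.60), TPI1 (-0.58), GAPDH (-0.53), PGK1 (-0.54), PGAM1 (-0.56), ENO1 (-0.70) and PKM (-0.44). Those that rose included the hexokinases HK1, HK2 and HK3, the transporter SLC2A3 and LDHA. Of 16 genes of pyrimidine synthesis and salvage, 10 fell, among them CTPS1, which makes CTP (-1.09), and DHODH, the mitochondrial enzyme of the pathway (-0.75), and CDA (0.81) and CMPK1 (0.74) rose. Of 23 genes of the ATF4 and amino acid stress list, 12 fell and 4 rose, and PSAT1, an enzyme of serine synthesis, held 199, 202 and 202 TPM in shNS and 78.2, 74.8 and 103 TPM in shFTO (log2 fold change -1.24, SE 0.081, limma adjusted p = 1.23e-08). The amino acid transporter SLC7A5 fell by 0.95.

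Chaperones of the endoplasmic reticulum, which fold secreted and membrane proteins, rose. Of 18 tested, 15 rose and 0 fell, where 31.9% of all genes rose; the median log2 fold change was 0.53. Without shNS replicate 1, 14 rose and 1 fell. In 15 members, the called ones with PDIA4 in place of XBP1, every shFTO library lay above every shNS library, as in 38.3% of all genes. HSPA5, the lumenal chaperone BiP, held 235, 246 and 245 TPM in shNS and 484, 503 and 409 TPM in shFTO (log2 fold change 0.93, SE 0.062, limma adjusted p = 1.42e-08). The disulfide isomerase PDIA6 held 352, 361 and 367 TPM in shNS and 573, 594 and 551 TPM in shFTO (log2 fold change 0.67, SE 0.033, limma adjusted p = 6.30e-10). Calreticulin (CALR) and calnexin (CANX), which hold glycoproteins during folding, rose by 0.61 and 0.51. Replicate 3 was the lowest shFTO library in 13 of the 18, against 31.5% of all genes tested, yet without overlap for the 4 genes just named. SDF2L1 (-0.10), PDIA4 (0.07) and HERPUD1 (0.11) did not pass.

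The endoplasmic reticulum stress response element, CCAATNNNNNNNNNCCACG, is a known site of such genes. It occurred on either strand in the 250-base windows of 7 of 17 chaperone genes with a promoter in the table (41.2%), against 0.092% of 27305 genes and 0.162% of genes tested. All 7 (HSPA5, HSP90B1, PDIA6, CALR, CANX, XBP1 and CRELD2) rose, but 15 of the 18 members tested rose in any case. The 4 with the smallest adjusted p are shown with the element in capitals, from the same RefSeq table.
PDIA6 (chr2:10812786-10813035, minus strand): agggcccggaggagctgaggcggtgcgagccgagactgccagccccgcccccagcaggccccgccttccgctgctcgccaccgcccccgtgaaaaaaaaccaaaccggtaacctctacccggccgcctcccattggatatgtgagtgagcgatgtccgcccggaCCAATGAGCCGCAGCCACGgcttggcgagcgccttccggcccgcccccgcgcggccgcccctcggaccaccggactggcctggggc
HSPA5 (chr9:125241344-125241593, minus strand): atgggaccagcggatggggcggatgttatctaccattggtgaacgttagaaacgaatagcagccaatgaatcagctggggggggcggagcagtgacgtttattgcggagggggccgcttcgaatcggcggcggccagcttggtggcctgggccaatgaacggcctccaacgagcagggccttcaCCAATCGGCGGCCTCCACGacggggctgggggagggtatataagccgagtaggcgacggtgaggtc
CANX (chr5:179698679-179698928, plus strand): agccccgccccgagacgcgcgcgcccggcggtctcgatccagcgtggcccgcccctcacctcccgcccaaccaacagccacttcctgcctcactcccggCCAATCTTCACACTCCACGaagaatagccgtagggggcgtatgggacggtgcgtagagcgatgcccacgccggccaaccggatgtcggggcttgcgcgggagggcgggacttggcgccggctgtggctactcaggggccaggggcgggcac
CALR (chr19:12938359-12938608, plus strand): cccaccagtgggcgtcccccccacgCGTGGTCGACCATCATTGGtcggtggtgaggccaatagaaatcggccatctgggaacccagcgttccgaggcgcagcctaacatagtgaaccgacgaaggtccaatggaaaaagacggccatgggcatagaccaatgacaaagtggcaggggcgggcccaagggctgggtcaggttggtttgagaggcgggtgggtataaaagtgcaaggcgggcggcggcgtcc
The element reads forward in PDIA6, HSPA5 and CANX and in reverse in CALR.

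Cholesterol synthesis genes rose in most steps. Of 23 tested, 17 rose and 2 fell, with a median of 0.36, where 31.9% of all genes rose and 24.5% fell. After median scaling of TPM 14 rose and 3 fell, and without shFTO replicate 3, 15 rose and 3 fell. HMGCS1, an early enzyme of the pathway, held 39.7, 41.4 and 41.0 TPM in shNS and 96.7, 106 and 108 TPM in shFTO (log2 fold change 1.32, SE 0.090, limma adjusted p = 1.85e-08). MSMO1, a sterol oxidase, held 68.7, 67.1 and 69.6 TPM in shNS and 167, 178 and 166 TPM in shFTO (log2 fold change 1.302, SE 0.11, limma adjusted p = 1.93e-07). Both were at least 2-fold above every shNS library in each shFTO library. SREBF2, the transcription factor that drives the pathway, rose by 0.60. Phosphomevalonate kinase (PMVK) fell against this direction, from 76.81, 80.11 and 75.74 TPM to 41.95, 41.73 and 43.14 TPM (log2 fold change -0.86, SE 0.055, limma adjusted p = 1.05e-08), and NSDHL fell by 0.26. A sterol response element, TCACNCCAC, was in the window of 1 of 17 of these genes (5.88%), SREBF2, against 1.09% of all genes. It is shown because SREBF2 is both regulator and member.
SREBF2 (chr22:41832855-41833104, plus strand): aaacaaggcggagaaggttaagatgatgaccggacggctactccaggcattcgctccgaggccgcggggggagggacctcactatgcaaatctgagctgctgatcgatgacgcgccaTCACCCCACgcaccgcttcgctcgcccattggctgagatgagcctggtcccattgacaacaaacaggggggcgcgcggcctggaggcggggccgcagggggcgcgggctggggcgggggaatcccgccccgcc
No match in the other 16 windows says only that these letters were not there.

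Genes of mature monocytes and macrophages rose in most members. Of 16 tested, 13 rose and 2 fell, with a median of 0.98, where 31.9% of all genes rose and 24.5% fell. The rises numbered 11 after median scaling of TPM and 10 without shNS replicate 2. With a mean of at least 5 TPM required they numbered 9, and 2 fell in each of these settings. Beyond LYZ, the lysosomal marker CD68 held 214, 219 and 219 TPM in shNS and 539, 522 and 555 TPM in shFTO (log2 fold change 1.304, SE 0.060, limma adjusted p = 3.12e-10). The lysosomal protease CTSS held 52.1, 55.3 and 53.8 TPM in shNS and 127, 131 and 133 TPM in shFTO (log2 fold change 1.26, SE 0.052, limma adjusted p = 1.11e-10). In both, the 3 shFTO libraries were close together and far from shNS. The scavenger receptor CD36 (1.04), the Fc receptor FCGR1A (1.16) and the adaptor TYROBP (1.18) rose. The members that fell, FCN1 (-0.36) and S100A9 (-0.55), are known as genes of classical monocytes, and S100A8 (0.19) did not pass. S100A9 held 99.86, 92.64 and 91.82 TPM in shNS and 60.5, 48.75 and 90.65 TPM in shFTO, so replicate 3 lay close to shNS. CD14, as given above, was near 0 in every library.

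Lists of earlier myeloid stages held both rises and falls, in small counts to be read against the 31.9% and 24.5% of all genes. In the promyelocyte granule list 5 of 11 rose and 3 fell: cathepsin G (CTSG, 0.42) and azurocidin (AZU1, 0.40) rose while proteinase 3 (PRTN3, -0.76) and SERPINB1 (-0.49) fell. Of 15 myeloid transcription factors 4 rose and 6 fell. IRF8, a factor of the monocyte lineage, rose from 82.98, 87.96 and 85.09 TPM to 124, 126 and 137 TPM (log2 fold change 0.59, SE 0.039, limma adjusted p = 1.43e-08). CEBPE, a factor of granulocytes, fell from 29.43, 28.93 and 28.55 TPM to 16.39, 17.26 and 17.77 TPM (log2 fold change -0.72, SE 0.050, limma adjusted p = 2.02e-08), and the repressor GFI1 fell by 0.44. Neither IRF8 nor CEBPE overlapped between groups. In the HOX and self-renewal list 5 of 16 rose and 2 fell, with MYB falling (-0.47) and BMI1 (0.62) and MEIS1 (0.40) rising; without shNS replicate 2 or shFTO replicate 3, 1 fell.

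Immune genes rose in part. The counts in this paragraph are to be read against all genes, of which 31.9% rose and 24.5% fell. Of 26 genes of the type I interferon response, 16 rose and 1 (ISG15) fell, with a median of 0.40. IFI6 held 141, 148 and 159 TPM in shNS and 303, 307 and 308 TPM in shFTO (log2 fold change 1.03, SE 0.055, limma adjusted p = 1.37e-09). STAT2 and IRF9, transcription factors of interferon signalling, rose by 1.03 and 1.03, while MX1 (-0.08) and IFI44 (0.01) did not pass. With median scaling of TPM 13 rose and 3 fell, and with a mean of at least 5 TPM required 10 rose and 1 fell. Of 15 inflammatory genes 9 rose and 1 (NFKB1) fell, including ICAM1 (0.55) and IL1B (1.66). Among class I presentation genes HLA-C, HLA-E and B2M rose by 0.75, 0.60 and 0.51, and the immunoproteasome subunit PSMB8 (-0.48) and the transactivator NLRC5 (-0.27) fell. Of 9 immune checkpoint ligands and receptors 8 rose, with a median of 0.52, and LGALS9 fell. No member was called lower without shNS replicate 2 or 3 or without shFTO replicate 1 or 2. The same held in the fit to the 6 hairpin libraries. TNFRSF14, a ligand and receptor of lymphocyte control, held 33.3, 30.8 and 33.9 TPM in shNS and 100.3, 105 and 84.7 TPM in shFTO (log2 fold change 1.53, SE 0.19, limma adjusted p = 6.82e-06). SIRPA, the receptor for CD47, and CD47 itself rose by 0.52 and 0.47.

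The rest of the AlkB family was compared because FTO is a member. Apart from FTO, 2 of 8 fell and 2 rose, near the 24.5% and 31.9% of all genes, so the counts are not a result about the family. ALKBH5, the other known m6A demethylase, held 62.4, 65.6 and 63.2 TPM in shNS and 67.6, 67.8 and 64.1 TPM in shFTO, with the groups overlapping, and it did not pass (log2 fold change 0.06, SE 0.038, limma adjusted p = 0.192); with quantile normalization (0.10) and with length bins set equal (0.11) it was called higher. ALKBH2, a DNA repair enzyme, fell from 25.55, 21.96 and 24.95 TPM to 15.44, 17.11 and 16.32 TPM (log2 fold change -0.54, SE 0.082, limma adjusted p = 5.04e-05), and ALKBH1 fell by 0.25. ALKBH6 (0.16) and ALKBH7 (0.21) rose, but both calls were lost after median scaling, without shNS replicate 3 and without shFTO replicate 1, and that of ALKBH7 also without shNS replicate 1 or shFTO replicate 2. Of 18 writers and readers of m6A 6 rose and 6 fell, near the 31.9% and 24.5% of all genes. The reader IGF2BP3 held 20.4, 21.6 and 22.2 TPM in shNS and 42.0, 47.1 and 42.0 TPM in shFTO (log2 fold change 0.99, SE 0.070, limma adjusted p = 2.43e-08). HNRNPA2B1, a nuclear reader, fell by 0.55, and METTL3 did not pass (-0.09). Over the alternatives run, between 4 and 7 writers and readers rose and between 4 and 8 fell.

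Genes that lie near FTO on chromosome 16 were compared as well, since an intron of FTO is known to hold enhancers that contact IRX3. IRX3 held 28.93, 30.40 and 30.29 TPM in shNS and 15.48, 14.02 and 19.04 TPM in shFTO (log2 fold change -0.86, SE 0.084, limma adjusted p = 7.43e-07). IRX5 held 5.74, 6.50 and 5.17 TPM in shNS and 3.47, 3.34 and 3.16 TPM in shFTO (log2 fold change -0.65, SE 0.085, limma adjusted p = 1.21e-05). Both fell without overlap. MMP2, a matrix metalloproteinase further along the chromosome (chr16:55389700-55506691), rose from 39.16, 38.91 and 39.56 TPM to 139, 141 and 142 TPM (log2 fold change 1.82, SE 0.077, limma adjusted p = 1.27e-10). The closer neighbours RPGRIP1L (-0.17) and AKTIP (0.10) did not pass, whereas RBL2 (0.23), CHD9 (0.58) and LPCAT2 (0.24) rose. The call for RBL2 was lost after median scaling and with length bins set equal, and without shNS replicate 1 or shFTO replicate 2. RPGRIP1L held 2.55, 2.34 and 2.49 TPM in shNS and 2.11, 2.12 and 2.01 TPM in shFTO, without overlap, and was called lower after median scaling of log2 values (-0.25) or of TPM (-0.23), with quantile normalization (-0.36) and with length bins set equal (-0.40).

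Of the 6 transcripts tied to FTO in leukaemia, 4 fell and 1 rose, where 24.5% of all genes fell and 31.9% rose. Besides MYC, the phosphofructokinase PFKP held 115, 117 and 114 TPM in shNS and 74.4, 73.5 and 79.3 TPM in shFTO (log2 fold change -0.60, SE 0.032, limma adjusted p = 1.29e-09). LDHB, lactate dehydrogenase B, fell by 0.39 and the myeloid factor CEBPA by 0.21. ASB2, a ubiquitin ligase subunit, rose by 0.16, a call lost after median scaling (limma adjusted p = 0.356), without shNS replicate 2 (0.0629) and without shFTO replicate 2 (0.0536). RARA, the retinoic acid receptor, held 25.3, 26.6 and 25.4 TPM in shNS and 25.7, 23.9 and 30.8 TPM in shFTO; its groups overlapped and it did not pass (log2 fold change 0.05, SE 0.069, limma adjusted p = 0.583).

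Further lists held rises and falls in shares near those of all genes (31.9% and 24.5%), so the counts are not a result about these lists. In double-stranded RNA sensing and RNA interference, which concern how a cell handles a hairpin, 7 of 20 rose and 3 fell; 3 rose without shNS replicate 1, 4 rose without shFTO replicate 2, and 8 fell with length bins set equal. XPO5, which exports hairpin precursors from the nucleus, fell from 112.5, 117.9 and 116.5 TPM to 62.6, 63.0 and 69.7 TPM (log2 fold change -0.82, SE 0.041, limma adjusted p = 6.73e-10), and AGO4 rose (0.68). Among p53 targets 8 of 20 rose and 6 fell (3 without shFTO replicate 2), with AEN, an exonuclease, falling (-1.15) and the cytokine GDF15 rising (1.32). Among apoptosis regulators 10 of 27 rose and 9 fell: BMF, which promotes death, rose (0.91), and the survival factor BCL2 fell from 8.85, 9.42 and 9.16 TPM to 5.16, 4.97 and 5 TPM (log2 fold change -0.75, SE 0.072, limma adjusted p = 6.45e-07). Among immediate early genes 6 of 18 rose and 5 fell (3 without shNS replicate 3 or shFTO replicate 1).

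The spread between shFTO libraries was larger than between shNS libraries. The median SD of log2(TPM + 1) was 0.0980 in shFTO and 0.0522 in shNS, against 0.0764 in DMSO, and the SD was higher in shFTO for 10882 genes (72.8%). Without shFTO replicate 3 it was higher for 7931 of the 14951, with the shFTO SD then taken over 2 libraries. Pearson's r across genes, which are not independent replicates, was 0.988 to 0.991 within shFTO and 0.992 to 0.993 within shNS. Replicate 3 lay nearest to shNS, with r of 0.977 against 0.968 to 0.973 for the other 2. Among genes called lower, its median difference from shNS was -0.29, against -0.41 and -0.42 for replicates 1 and 2. Among genes called higher the medians were 0.39 for replicate 3 and 0.40 and 0.48 for replicates 1 and 2. The counts that follow cover 9828 protein-coding genes with a mean of at least 5 TPM in shFTO. Replicate 3 stood more than 0.5 on the log2 scale above the mean of the other 2 for 101 and below that mean for 44. The matching counts were 6 and 6 for replicate 1 and 8 and 27 for replicate 2.

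**Figure D3:**
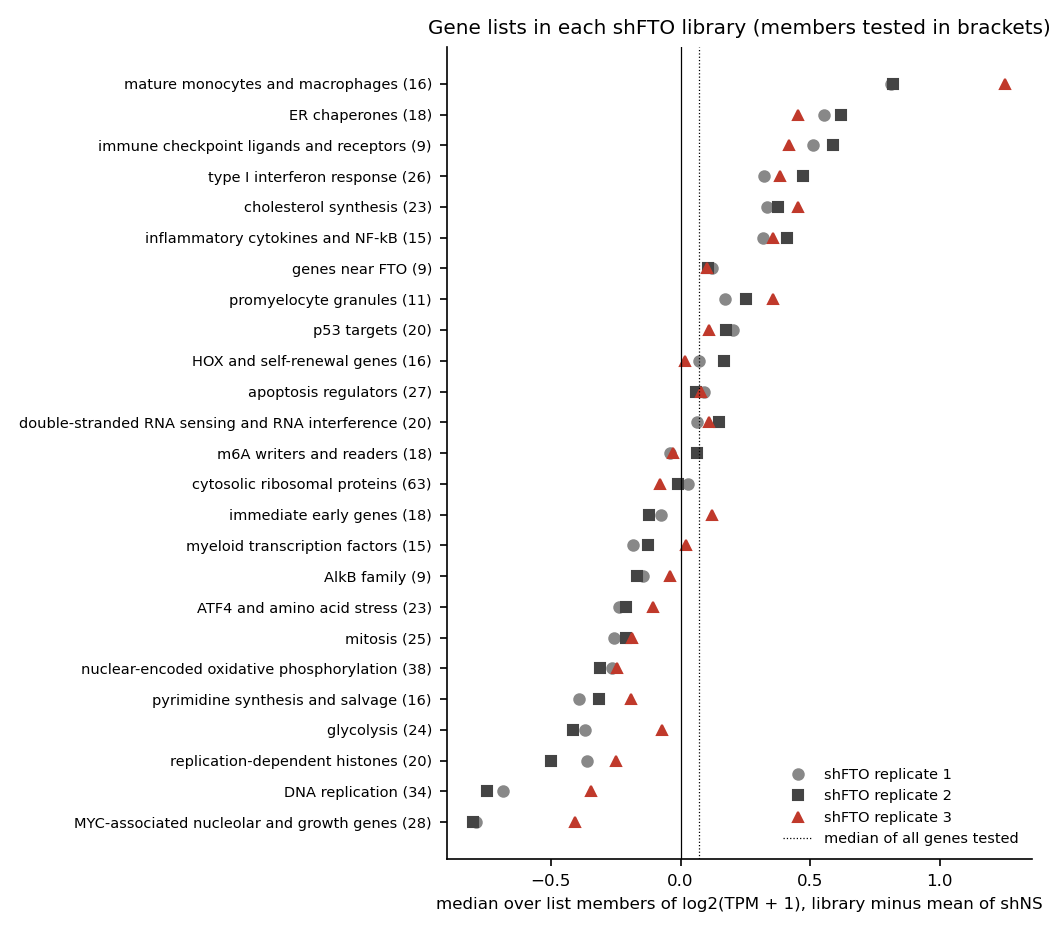
Median over list members of log2(TPM + 1) in each shFTO library minus the mean of shNS, for lists with at least 9 members tested (number in brackets); circle, square and triangle are replicates 1, 2 and 3 and the dotted line is the median of all genes tested. For DNA replication the medians are -0.69, -0.75 and -0.35, and for monocytes and macrophages 0.81, 0.82 and 1.25.

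The groups of genes differed in how replicate 3 stood. It was the highest shFTO library for 32 of 34 replication genes, 26 of 28 nucleolar and growth genes, 21 of 24 glycolysis genes, 16 of 18 immediate early genes and 14 of 16 monocyte and macrophage genes, where it was highest for 44.6% of all genes tested. The nucleolar list had medians of -0.79, -0.80 and -0.41 in replicates 1, 2 and 3, and glycolysis -0.37, -0.41 and -0.07. So replication and nucleolar genes were nearer to shNS in replicate 3, while monocyte and macrophage genes were further from it. FTO itself was 8.35 TPM there, against 8.12 and 7.49 TPM. In oxidative phosphorylation the medians were alike, at -0.27, -0.31 and -0.25.

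**Figure D4:**
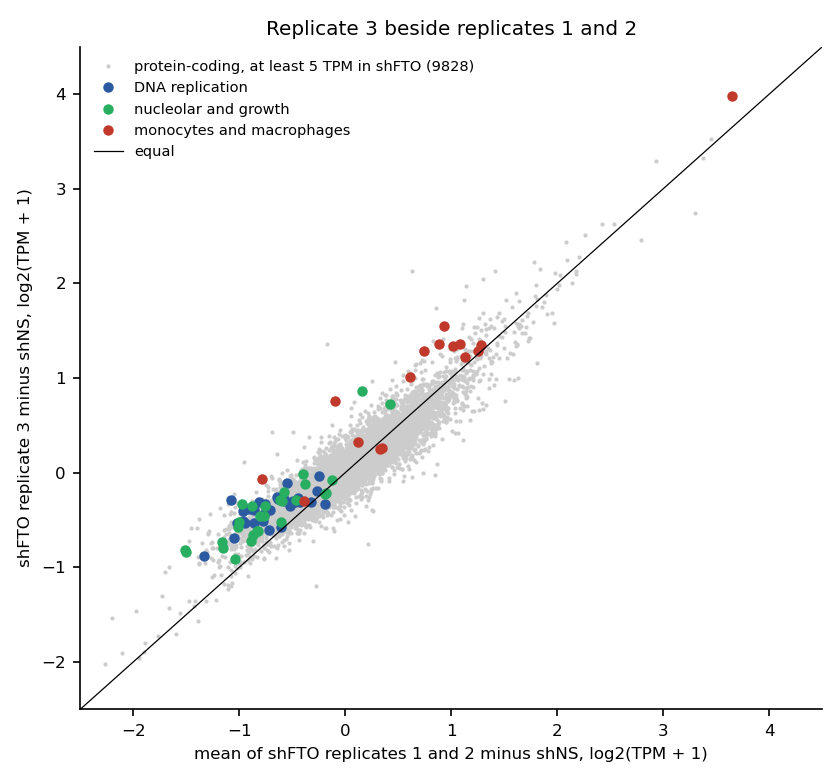
Difference from the shNS mean on log2(TPM + 1) in shFTO replicate 3 (vertical) and in the mean of replicates 1 and 2 (horizontal), for 9828 protein-coding genes with at least 5 TPM in shFTO (grey) and 3 gene lists (coloured); the line marks equal values, and both axes share the shNS libraries. Blue and green points, of replication and nucleolar genes, lie above the line at negative values, and most red points, of monocytes and macrophages, lie above it at positive values.

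Single genes show the range of this spread. The chemokine CCL2 held 10.96, 10.41 and 7.30 TPM in shNS and 15.90, 14.47 and 44.54 TPM in shFTO. The DNA methylation factor UHRF1 held 57.30, 56.99 and 56.31 TPM in shNS and 28.76, 25.38 and 48.59 TPM in shFTO, so its fall (-0.77) was small in replicate 3. The phosphatase DUSP6 held 29.78, 29.99 and 29.40 TPM in shNS and 21.26, 20.35 and 40.32 TPM in shFTO, with libraries on both sides of shNS, and it was not called. In the other direction, the glucocorticoid-induced gene TSC22D3 held 48.18, 51.52 and 50.09 TPM in shNS and 147.7, 156.7 and 99.7 TPM in shFTO, and the thioredoxin inhibitor TXNIP held 57.36, 57.74 and 58.68 TPM in shNS and 140.9, 147.0 and 92.8 TPM in shFTO. For these, replicate 3 was the lowest of its group though above shNS. The clock gene NR1D1 held 4.55, 4.54 and 5.02 TPM in shNS and 9.39, 9.36 and 5.05 TPM in shFTO, where replicate 3 lay at the level of shNS. These 6 genes were chosen after their values were seen, from those that differ most between shFTO libraries. By the rule for named genes, the entries furthest apart were small RNAs such as RNU6-1 and SNORD75, at 0 in some libraries of both groups or of shFTO; over 564 small RNA entries the median SD was 0.57 in shFTO and 0.52 in shNS, and 9.22% were called.

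The hairpin response was set beside the responses to CS1 and CS2, each against DMSO, by testing the difference of the responses. Against CS1 the hairpin response was called above for 18.3% of all genes and below for 31.0%; against CS2 the shares were 23.7% and 39.8%. CS1 and CS2 share their DMSO libraries, the hairpin groups have their own controls, and the agents, doses and times differ. DNA replication genes had a median of -0.61 with the hairpin, 0.15 with CS1 and 0.50 with CS2, and the hairpin response was below that of CS1 in 33 of 34 and of CS2 in 32. Cholesterol genes had medians of 0.36, -0.40 and -0.41, and the hairpin was above CS1 in 20 of 23 and above CS2 in 17. ER chaperones were above CS1 in 11 of 18 and above CS2 in 14. Monocyte and macrophage genes had medians of 0.98, 1.42 and 1.82. The hairpin was below CS1 in 9 of 16 and above it in 5, and below CS2 in 11 and above it in 2. Of 63 ribosomal protein genes, all 63 were above CS2, where their median was -0.97. The counts of differences for gene lists were added after the values were seen.

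**Figure D5:**
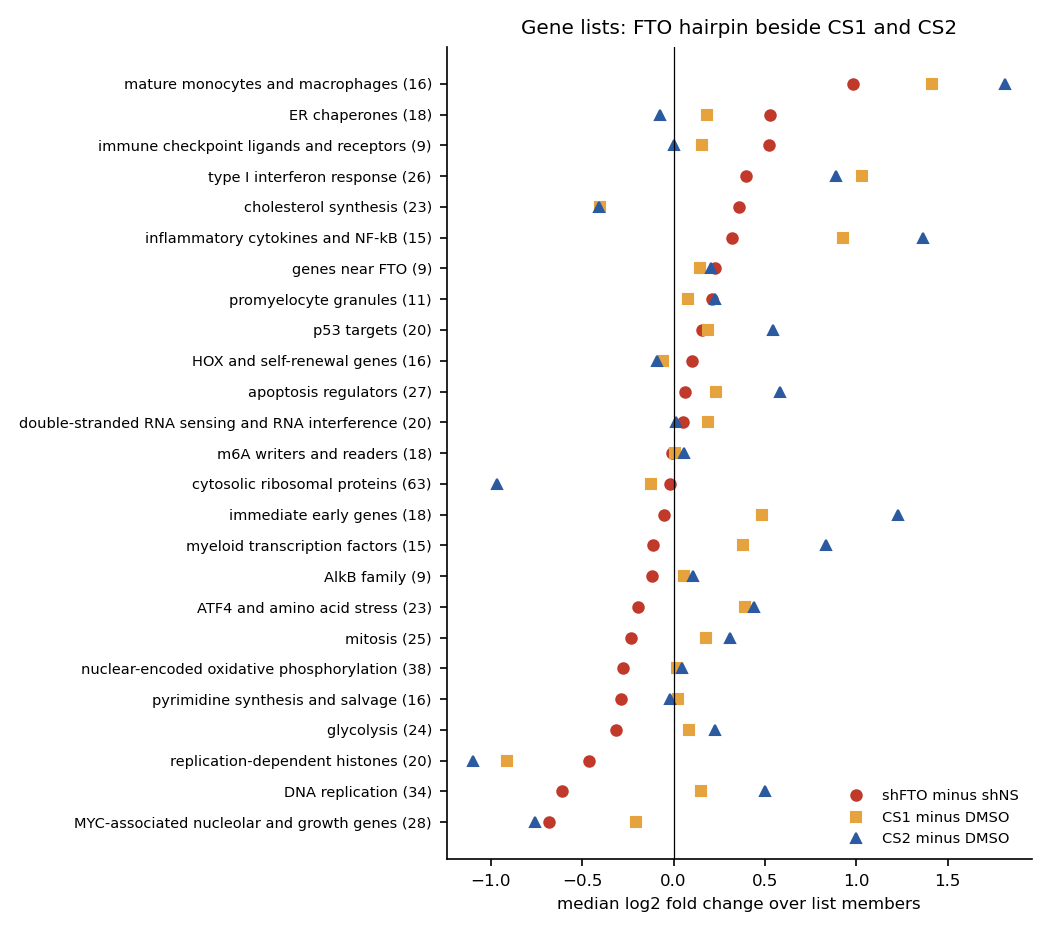
Median log2 fold change over list members for shFTO minus shNS (circles), CS1 minus DMSO (squares) and CS2 minus DMSO (triangles), for lists with at least 9 members tested (number in brackets). Replication lies at -0.61 with the hairpin and at 0.15 and 0.50 with the compounds, and cholesterol synthesis at 0.36 against -0.40 and -0.41.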

How the data were processed

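The values were deposited as TPM in 1 table with 1 column per library, made by the authors with RSEM 1.2.31 on the GRCh38 build, per the submitters' processing notes. Which aligner and gene annotation were used is not given in the sources used here. Columns were assigned to libraries by name. Values were used as deposited, as log2(TPM + 1), for genes with at least 1 TPM in at least 3 of 16 libraries. A linear model with 1 mean for each of the 5 groups was fitted to the 16 libraries together in limma 3.58.1 (R 4.3.3), with moderated variances that follow a trend on expression and no replicate term. Tests were two-sided, with Benjamini-Hochberg adjustment over all genes tested and a threshold of 0.05. The median scalings, another pseudocount, filters, a quantile normalization, a fit to the 6 hairpin libraries, a replicate block and leaving out each library were tried as alternatives. Setting 10 bins of transcript length to equal medians was added after the values were seen.

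The members and the 31 gene lists were chosen with earlier results of these data known. Lists are described by counts and medians, with no test of a list. Named genes were FTO, the 12 largest rises and falls among protein-coding genes that passed, reached a mean of 5 TPM in 1 group and had no overlap of libraries, all genes tied to, related to or near FTO, up to 5 members of each other list with the smallest adjusted p, and the 3 genes furthest above and below in each shFTO library; other members are named to describe a list, and some are not reported here. Symbols were matched to GENCODE release 29, where 23870 of 26830 entries were found by symbol and 538 by an older symbol, and coordinates are from that release. Promoter sequences are from RefSeq on GRCh38.p14, and motifs were chosen for lists whose members moved together. The fit was also run on simulated data, in which all groups had the same spread for a given gene. The larger spread of shFTO than of shNS was not part of that check. Python 3.11.15 with pandas 2.3.3, numpy 2.4.6 and matplotlib 3.10.9 made the summaries and plots.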

Additional observations from a re-analysis of the deposited data

Results flagged for a closer look

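For genes tied to FTO and for FTO itself, the hairpin response was tested against the response to each compound, each response taken against its own control. The differences below are on the log2 scale, hairpin minus compound, and passed at a limma adjusted p under 0.05. FTO differed by -1.96 from CS1 and by -1.97 from CS2, with compound responses of 0.10 and 0.11 that did not pass. MYC differed by 2.98 from CS2, where its response was -3.85, against -0.87 with the hairpin; from CS1 it differed by 0.45 and did not pass (limma adjusted p = 0.0708). CEBPA differed by 0.49 from CS2. ASB2 differed by -0.58 from CS1 and -1.31 from CS2, and RARA by -0.56 and -1.11, and both rose with each compound. PFKP differed by -0.83 and -0.85, falling with the hairpin and rising with each compound. LDHB fell in all 3 responses and differed by -0.23 from CS1 and by 0.15 from CS2. CS1 and CS2 share their DMSO libraries, and doses, times and the kind of agent differ.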

How the results depend on the processing

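Of 3187 values of 190 named genes under 17 alternatives, 3133 kept their direction and side of the threshold, 39 lost and 15 gained a call, and 0 reversed. The genes called ranged from 7428 to 8431 when 1 library was left out, with 4101 to 4592 higher and 3254 to 3839 lower, and the fold change of FTO from -1.89 to -1.82. For at least 2-fold changes, leaving out 1 library gave 313 to 391 rises and 101 to 199 falls, the highest count of falls being that without shFTO replicate 3. With a pseudocount of 0.1 there were 626 rises and 192 falls, with a pseudocount of 5 there were 120 and 51, and with a mean of at least 5 TPM there were 211 rises. Of 14951 genes, those with a higher SD in shFTO numbered 7931 to 11686 when 1 library was left out, the lowest being that without shFTO replicate 3. An SD of 2 libraries is then set beside an SD of 3. With no filter on low values they numbered 14774 of 22492. Of the 7 genes whose response was compared with that to each compound, 5 or 6 differed from CS1 and 7 from CS2. With the replicate number as a block on the 6 hairpin libraries, 7702 genes were called, 4422 higher and 3280 lower, and ribosomal protein genes split 3 higher and 8 lower. Same-numbered shNS and shFTO libraries had correlations of their deviations of 0.0764, 0.0415 and 0.00439, and shNS replicate 3 correlated more with shFTO replicate 2 (0.0221) than with shFTO replicate 3, so the data do not show that the numbers pair the libraries. TPM hold no depth, so low genes cannot be weighed by their reads.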
